A study of Mus musculus with 10 samples.

Results

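Genes of the interferon response were followed through cultured mouse neural stem cells with and without a mutation in SMCHD1. The set comprised 9 genes, Ifit1, Ifit3, Isg15, Bst2, Oasl2, Irf7, Irf9, Stat2 and Usp18, taken by symbol from the 52632 genes of the deposited count table, and all 9 were found. SMCHD1 is a chromatin protein of the SMC family that helps to keep the inactive X chromosome and several autosomal gene clusters silent, and E147A is a substitution in its ATPase domain. Poly(A) RNA was sequenced from 10 cultures, each grown as a laminin-attached monolayer with EGF and basic FGF at 20 ng/mL from the cortices of a different embryo at embryonic day 14.5. The question put to these genes was whether cultures carrying E147A showed an innate immune response. Of the 9 genes, 5 had their highest level in a culture of +/+ genotype, female +/+ replicate 1, and Usp18 had it in another, male +/+ replicate 1.

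The cultures formed 4 groups, with 2 female E147A/+, 2 female +/+, 3 male E147A/+ and 3 male +/+ embryos. Every E147A/+ embryo was heterozygous for an allele that also encoded a GFP tag, so mutation and tag could not be told apart. All females, of either genotype, carried the XistdeltaA allele on the maternal X, and males were XY. Per the labels, all 10 embryos came from the same kind of cross, a Castaneus father and a 129/C57 F1 mother, but allelic counts of the females, given at the end, go against a whole paternal Castaneus genome. Litter 3 supplied both +/+ females, whereas the E147A/+ females were from litters 1 and 2, so that genotype and litter cannot be told apart in females. For males the litters were 1, 1 and 3 (E147A/+) and 4, 1 and 3 (+/+). Each embryo contributed a single culture, so p-values measure the spread between embryos together with that between cultures.

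Total counts per library ranged from 20648916 to 44519020. All 8 neural stem cell markers examined passed the expression filter, and their summed level was 4770 to 6810 CPM (gene counts scaled to a common library size after correction for composition). Of 11 microglia and macrophage markers, 9 stayed at 6 counts or fewer in every library, and their summed level was 0 to 0.502 CPM. Markers of endothelial cells, fibroblasts, neurons, astrocytes and the oligodendrocyte lineage (28 genes tested) gave 0 calls between genotypes over both sexes in edgeR (all genes 0.0818%), and 4 had p under 0.05 before adjustment (all genes 5.90%), Cldn5 (-3.26), Rbfox3 (1.36), Sox10 (-2.29) and Pdgfra (-2.38). Smchd1 itself was at 94.2 to 128 CPM in the E147A/+ libraries and 122 to 192 in the +/+ libraries. Its log2 fold change in edgeR was -0.42 (SE 0.155), and its adjusted p was 0.786. Gene counts do not show the E147A substitution itself. Female +/+ replicate 1, which recurs in most results here, had counts of 4 Y-linked genes at 1.72% of the male mean, against 0.432% in female +/+ replicate 2 and 0.0413% to 0.0678% in female E147A/+.

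Type I interferons are secreted when sensors such as RIG-I, MDA5 or cGAS meet foreign or misplaced nucleic acid. They signal through the receptor chains IFNAR1 and IFNAR2 and the kinases JAK1 and TYK2 to a complex that contains STAT2 and IRF9 and binds the interferon-stimulated response element (ISRE) in the promoters of many genes. Isg15, Ifit1, Ifit3, Oasl2 and Bst2 are effectors of that response, Irf7, Irf9 and Stat2 carry and amplify it, and Usp18 shuts it off at the receptor. In the brain, neural stem cells respond to interferon, and deregulated repeats or self nucleic acid can set off the same pathway without infection.

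To show the element that the complex binds, promoter windows of 300 bases (250 before to 50 after the RefSeq gene start, GRCm38.p6) were read for 8 of the 9 genes, Usp18 having no entry in the table used. The ISRE core was searched as GAAA NN GAAA, read without gaps and with N any base, on either strand, overlapping matches included. It was present in 5 of the 8 genes, Isg15, Ifit1, Ifit3, Bst2 and Stat2, and in 3.44% of all 32851 windows of that length. Isg15 had 3 overlapping matches from position -78 (the first base of the match, counted from the gene start), Ifit1 matches at -104 and -85, Ifit3 at -156 and -122, Bst2 overlapping matches at -130 and -124, and Stat2 a match at -222. The interferon gamma element GAS, searched as TTCNNNGAA, was found in Bst2 alone of the 8, at -136, where it overlaps the first ISRE match, and in 8.30% of all windows. The windows of Irf7, Irf9 (with 2 annotated starts) and Oasl2 held neither set of letters. Shown here are an effector with the densest run of matches (Isg15), an effector on the opposite strand of the motif (Ifit1), the most strongly expressed effector (Bst2), a subunit of the complex (Stat2) and a regulator without a match (Irf7), with ISRE cores in capitals and each window written 5′ to 3′ in the direction of the gene.
Isg15, chr4:156200769-156201068, minus strand: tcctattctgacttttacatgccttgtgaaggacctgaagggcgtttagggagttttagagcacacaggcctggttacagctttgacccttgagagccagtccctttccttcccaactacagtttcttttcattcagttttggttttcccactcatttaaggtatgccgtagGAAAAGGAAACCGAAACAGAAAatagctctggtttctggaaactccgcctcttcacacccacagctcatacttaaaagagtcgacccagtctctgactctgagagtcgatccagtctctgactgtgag
Ifit1, chr19:34640639-34640938, plus strand: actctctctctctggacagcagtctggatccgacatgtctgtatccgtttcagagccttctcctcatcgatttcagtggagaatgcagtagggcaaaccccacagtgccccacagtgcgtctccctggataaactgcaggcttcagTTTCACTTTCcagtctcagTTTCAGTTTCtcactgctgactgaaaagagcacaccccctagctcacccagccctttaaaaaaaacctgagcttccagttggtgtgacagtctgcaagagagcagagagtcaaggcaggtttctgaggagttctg
Bst2, chr8:71537423-71537722, minus strand: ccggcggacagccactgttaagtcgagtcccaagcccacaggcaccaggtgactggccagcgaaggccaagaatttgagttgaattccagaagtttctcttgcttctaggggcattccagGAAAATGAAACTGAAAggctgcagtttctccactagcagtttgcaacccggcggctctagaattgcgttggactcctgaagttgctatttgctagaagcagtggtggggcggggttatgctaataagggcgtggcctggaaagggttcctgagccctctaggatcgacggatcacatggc
Stat2, chr10:128270248-128270547, plus strand: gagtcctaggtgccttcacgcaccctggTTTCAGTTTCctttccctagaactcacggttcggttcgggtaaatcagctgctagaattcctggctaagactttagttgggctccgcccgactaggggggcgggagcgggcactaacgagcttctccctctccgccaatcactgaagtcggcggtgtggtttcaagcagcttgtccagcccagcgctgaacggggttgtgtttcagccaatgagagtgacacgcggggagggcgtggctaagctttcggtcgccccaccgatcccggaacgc
Irf7, chr7:141266375-141266674, minus strand: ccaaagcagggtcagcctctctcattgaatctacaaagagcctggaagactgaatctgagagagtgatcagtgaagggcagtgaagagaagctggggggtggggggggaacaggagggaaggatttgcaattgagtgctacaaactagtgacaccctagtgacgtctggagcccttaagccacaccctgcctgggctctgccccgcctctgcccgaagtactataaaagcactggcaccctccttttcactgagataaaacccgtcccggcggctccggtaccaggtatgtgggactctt
A match is a description of letters, and occupancy of these sites was not measured.

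At rest the pathway was unevenly expressed. Bst2, Stat2 and Irf9 were well above the detection floor in every library (3 counts correspond to 0.0674 to 0.145 CPM per library), whereas the mean level per length of the other 6 genes was lower. Per kilobase of exon, which allows genes to be compared, the mean level over 10 libraries was 31.4 CPM per kb for Bst2 (range 16.7 to 53.7), 5.61 for Stat2 (4.22 to 7.07) and 1.96 for Irf9 (0.963 to 3.67). The ranges of these 3 did not overlap. The other genes were lower still, at 0.522 for Usp18 (0.108 to 1.93), 0.367 for Isg15 (0 to 1.77), 0.229 for Irf7 (0.0306 to 0.902), 0.0691 for Ifit1 (0 to 0.312), 0.0538 for Oasl2 (0.00525 to 0.27) and 0.0345 for Ifit3 (0 to 0.0762). Neighbours in this lower part of the order overlapped in their ranges, and their order is not resolved by these libraries. In bulk RNA, fewer expressing cells and less RNA per cell cannot be told apart.

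**Figure D1:**
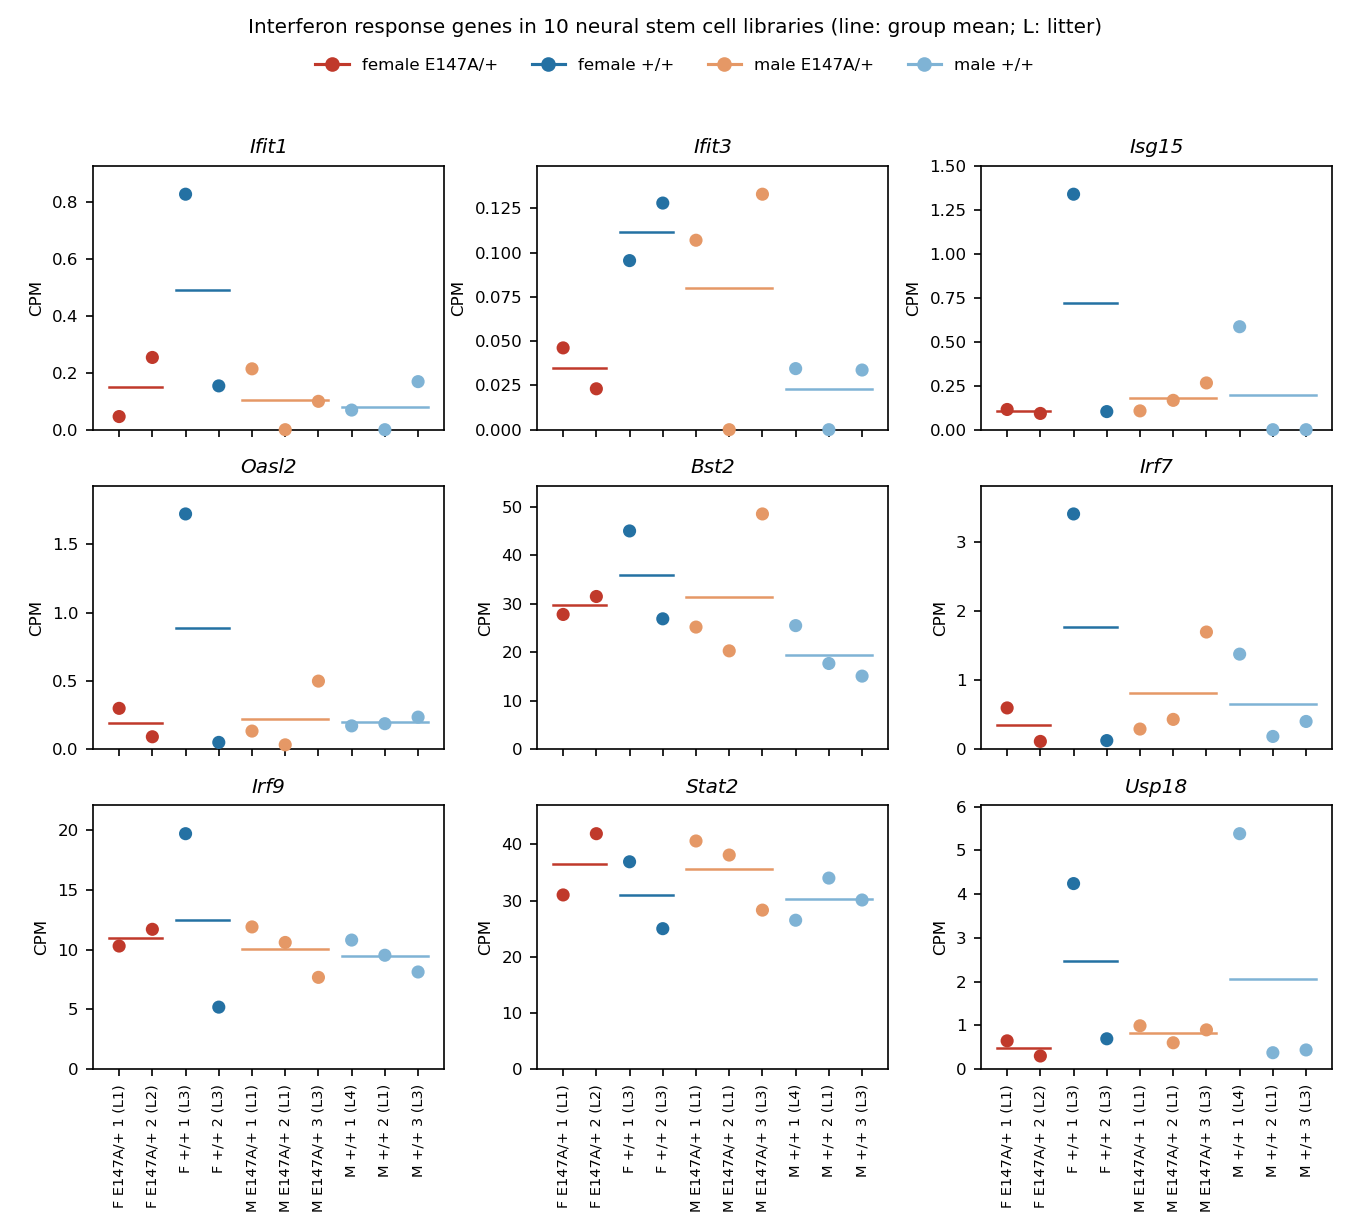
Level of each of the 9 genes (CPM, linear axis from 0, a separate scale per gene) in the 10 libraries, coloured by sex and genotype, with a line at each group mean and the litter in brackets. Female +/+ replicate 1 has the highest point for Ifit1, Isg15, Oasl2, Irf7 and Irf9, whereas the points of Stat2 lie within 25.0 to 41.9 CPM.

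Ifit1 encodes an RNA-binding protein that sequesters viral transcripts and Ifit3 a protein of the same family, and both were too low to pass the expression filter. Ifit1 (GRCm38 chromosome 19, 34640871 to 34650009) had 63 counts in all 10 libraries together. Its counts were 2 and 11 in female E147A/+, 26 and 6 in female +/+, 8, 0 and 3 in E147A/+ males, and 2, 0 and 5 in +/+ males. Of the 63 counts, 26 came from female +/+ replicate 1, and every E147A/+ library lay inside the range of the +/+ libraries. Ifit3 (chromosome 19, 34583531 to 34588731) had 21 counts in all, with 0 to 5 in any library, and its near-identical neighbour Ifit3b could share reads with it. A difference between genotypes was not detectable for Ifit3 at this depth.

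Isg15 encodes a ubiquitin-like modifier and is among the most inducible interferon targets. Isg15 (chromosome 4, 156199455 to 156200796) was at 0.115 and 0.0925 CPM in female E147A/+, at 1.34 and 0.103 in female +/+, at 0.107, 0.167 and 0.266 in E147A/+ males, and at 0.586, 0 and 0 in +/+ males. The 2 highest libraries were +/+ and so were the 2 libraries with no count, so the E147A/+ libraries lay within the spread of the controls. As counts, the highest value was 42 in female +/+ replicate 1 and the next 17 in male +/+ replicate 1. Over both sexes E147A/+ against +/+ was fitted at a log2 fold change of -1.45 (SE 1.06), with an adjusted p of 0.824, and without female +/+ replicate 1 at -0.069.

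Oasl2 encodes a protein related to the oligoadenylate synthetases. Its level (chromosome 5, 114896936 to 114912234) was 0.3 and 0.0925 CPM in female E147A/+ and 1.72 and 0.0514 in female +/+. In males it was 0.134, 0.0335 and 0.499 CPM in E147A/+ and 0.172, 0.188 and 0.236 in +/+. Apart from female +/+ replicate 1, no library exceeded 0.499 CPM, and that next-highest value belonged to an E147A/+ male. For both sexes together the fitted change was -0.998 on the log2 scale (SE 0.903), with an adjusted p of 0.836. Without female +/+ replicate 1 that change was 1.01.

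Bst2 encodes tetherin, which holds budding virions at the cell surface, and it had by far the most expression per length of the 9 genes. Its level (chromosome 8, 71534255 to 71537456) was 27.8 and 31.5 CPM in female E147A/+, 45.0 and 26.9 in female +/+, 25.2, 20.3 and 48.5 in E147A/+ males, and 25.5, 17.7 and 15.1 in +/+ males. The highest library was male E147A/+ replicate 3 and the second highest female +/+ replicate 1, both from litter 3, but the remaining litter 3 libraries were at 26.9 and 15.1. The Bst2 estimate for both sexes was 0.21 on the log2 scale (SE 0.275), with an approximate 95% interval of -0.41 to 0.82 and an adjusted p of 0.882. In males it was 0.69 (SE 0.35, interval -0.09 to 1.47), and without male E147A/+ replicate 3 it was 0.23.

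Irf7 encodes the factor that amplifies interferon production after a first signal. It (chromosome 7, 141262706 to 141266481) was at 0.601 and 0.116 CPM in female E147A/+, 3.41 and 0.128 in female +/+, 0.295, 0.435 and 1.7 in E147A/+ males, and 1.38, 0.188 and 0.405 in +/+ males. Each group except female E147A/+ thus had a library above 1 CPM and at least another below 0.5. Irf7 was fitted at -1.005 for both sexes (SE 0.924), where the adjusted p was 0.838, and at 0.28 for males (SE 1.17). Over both sexes its value was 0.87 without female +/+ replicate 1. In males it was -0.87 without male E147A/+ replicate 3 and 1.41 without male +/+ replicate 1.

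Irf9 and Stat2, the constitutive partners of the signalling complex, varied less than Isg15, Oasl2, Irf7 and Usp18. Irf9 (chromosome 14, 55603571 to 55610030) was at 10.3 and 11.7 CPM in female E147A/+, 19.7 and 5.19 in female +/+, 11.9, 10.6 and 7.68 in E147A/+ males, and 10.8, 9.53 and 8.13 in +/+ males. The highest and the lowest Irf9 level were the 2 female +/+ littermates. The Irf9 estimate for both sexes was -0.05 (SE 0.331), with an interval of -0.79 to 0.69 and an adjusted p of 0.981. Stat2 (chromosome 10, 128270559 to 128292849) was at 31.0 and 41.9 CPM in female E147A/+, 36.9 and 25.0 in female +/+, 40.6, 38.1 and 28.3 in E147A/+ males, and 26.5, 34.0 and 30.1 in +/+ males. Of the 5 E147A/+ libraries 3 were above every +/+ library, and the other 2 were inside the +/+ range. Stat2 had the narrowest interval of the 7 genes tested, 0.24 (SE 0.176) with an interval of -0.15 to 0.63 and an adjusted p of 0.824. Its value was 0.23 in females and 0.24 in males. With each library left out in turn these ran from -0.018 to 0.54 in females and from 0.14 to 0.38 in males.

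Usp18 encodes the protease that removes ISG15 from proteins and blocks the interferon receptor, so it is both a target and a brake of the pathway. Usp18 (chromosome 6, 121245906 to 121270917) was at 0.647 and 0.301 CPM in female E147A/+, 4.24 and 0.694 in female +/+, 0.991, 0.603 and 0.898 in E147A/+ males, and 5.38, 0.376 and 0.439 in +/+ males. A +/+ library of each sex stood far above the rest, at 133 counts in female +/+ replicate 1 and 156 in male +/+ replicate 1, and the other 8 libraries had 8 to 37 counts. In edgeR the Usp18 estimate for both sexes was -1.84 (SE 0.821, interval -3.67 to -0.007). Its unadjusted p was 0.0493, and after adjustment it was 0.821. Usp18 was the only gene of the 7 tested with an unadjusted p under 0.05 in this comparison, and without male +/+ replicate 1 its value over both sexes was -0.67 and its value in males changed sign, from -1.31 to 1.02.

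For the comparison of genotypes as a whole, 7 of the 9 genes passed the filter and were tested with all 17110 genes kept. Over both sexes edgeR called 0 of 7 at the adjusted threshold of 0.05, where 0.0818% of all genes passed (14 genes, 8 higher and 6 lower). With each library left out in turn 2 to 12 genes passed. The count was 3 without female +/+ replicate 1, and it was 9 or fewer for each library left out except male E147A/+ replicate 3 and male +/+ replicates 1 and 2. Before adjustment 1 of 7 had p under 0.05, as did 5.90% of all genes. DESeq2 and limma-voom also called 0 of these genes, though each called more of all genes than edgeR did, with counts given at the end. In females 0 of 7 passed (all genes 0.0117%) and in males 0 of 7 (all genes 0.0234%), and before adjustment 0 of 7 had p under 0.05 in either sex (all genes 4.36% and 3.44%). The sex by genotype interaction passed for 0 of 7 as well, where 0% of all genes passed, and before adjustment 0 of 7 had p under 0.05 (all genes 1.84%).

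The fitted values were mostly negative in females and mostly positive in males. In females 6 of 7 values were negative, with a median of -2.14 against -0.01 over all genes, and Isg15, Usp18, Irf7 and Oasl2 were at -2.73, -2.37, -2.29 and -2.14 (SE 1.29 to 1.64). In males 5 of 7 were positive, with a median of 0.14 against -0.02 over all genes. Without male E147A/+ replicate 3 the male median of the 7 genes was -0.17. Over both sexes 5 of 7 were negative, with a median of -0.998 against -0.01. The difference between sexes was itself tested by the interaction, whose 7 values were all negative with adjusted p = 0.999 each. The median of the interaction was -1.05 with all libraries and 0.75 without female +/+ replicate 1.

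These medians depended on female +/+ replicate 1 and on how litter was treated. Without that library the female median was 0.54, with 6 of 7 values positive, and the median over both sexes was 0.42, with 5 of 7 positive. Among single genes in females, Oasl2 went from -2.14 to 1.86 (SE 1.6), Irf7 from -2.29 to 1.45 (SE 1.65) and Irf9 from -0.18 to 1.07 (SE 0.406), while Usp18 stayed negative at -0.55. None of the 7 passed in that fit, whose lowest adjusted p among them was 0.883 over both sexes (all genes 0.0169% called) and 0.966 in females (all genes 0.00562%), and the lone remaining female +/+ library was assumed to vary like the other groups. With litter as a covariate in the fit of all libraries, the median over both sexes was 0.069. Over both sexes Isg15 was then at 2.09, Irf7 at 0.91, Oasl2 at 0.069 and Stat2 at -0.13, and in females Irf7 was at 0.30 and Oasl2 at 0.11. Female E147A/+ replicate 2 and male +/+ replicate 1 are each alone in a litter and fit themselves there. The female values thus rest on female E147A/+ replicate 1 alone for that genotype, and on a litter difference taken from the males. Isg15 was at 5.83 and Usp18 at 1.06 in males in that fit, and 0 of 7 passed in each of the 3 comparisons (all genes 0.0175% over both sexes, 0% in females and 0.0117% in males). The Isg15 value in males there is a fold over 0 counts, so its size is no bound. Male +/+ replicate 1 is alone in litter 4, and the other male +/+ libraries had no count. The Isg15 value of 2.09 over both sexes averages the female and the male value, so it has the same limit. In males, leaving out male +/+ replicate 1 also changed directions. Without it Isg15 no longer passed the filter, all 6 remaining values were positive with a median of 0.56, and 0 of 6 passed (lowest adjusted p 0.719, all genes 0.0235%).

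**Figure D2:**
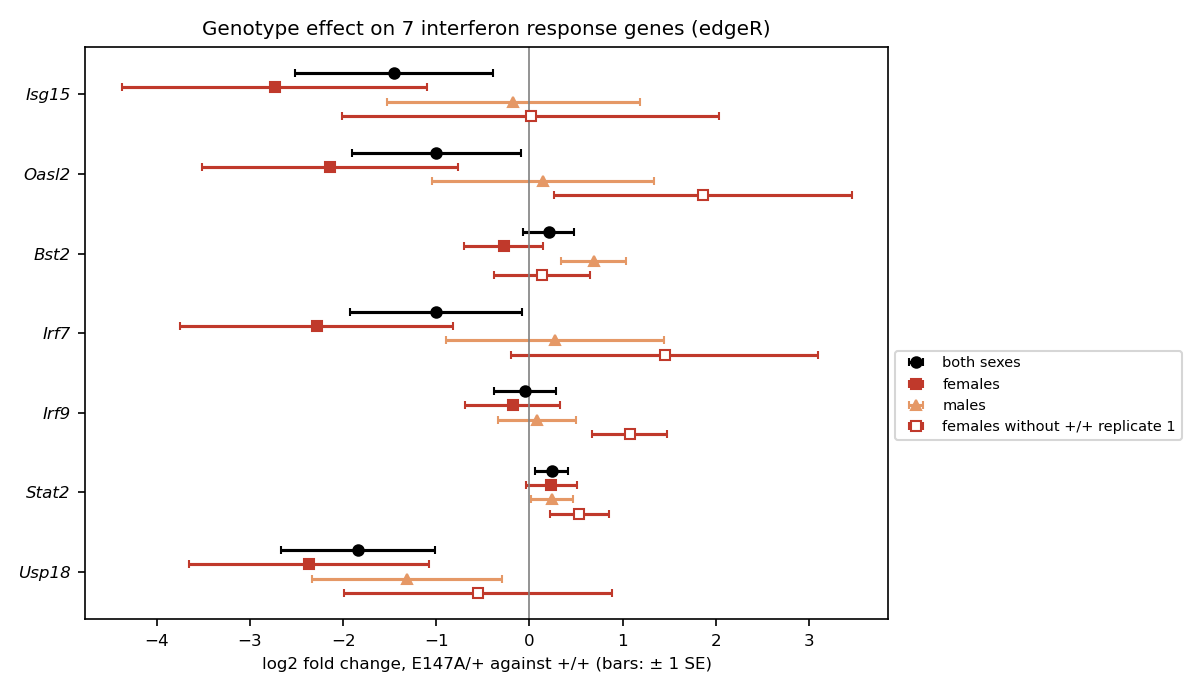
Log2 fold change of E147A/+ against +/+ (horizontal axis, bars ± 1 SE) for the 7 genes tested, over both sexes, in females, in males, and in females without +/+ replicate 1. For Oasl2 and Irf7 the female value lies at -2.14 and -2.29 with all libraries and at 1.86 and 1.45 without that library.

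The libraries were also compared without a model. Over both sexes 0 of 7 genes had all 5 E147A/+ libraries above, or all 5 below, the 5 +/+ libraries (all genes 0.695% and 0.742%). In males the counts were 0 and 0 (all genes 3.20% and 3.96%). In females, where 21.8% of all genes had both E147A/+ libraries above both +/+ libraries and 19.3% had them below, 0 of 7 were above and 1 of 7 was below. That gene was Usp18, whose nearest libraries were at 0.647 and 0.694 CPM.

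Littermates allowed the same genes to be compared between cultures of equal genotype. Both female +/+ embryos came from litter 3, yet replicate 1 exceeded replicate 2 by 33.5-fold for Oasl2 (exact 95% counting interval 8.83 to 283), 26.5-fold for Irf7 (11 to 83.4) and 13.0-fold for Isg15 (4.72 to 50). The intervals are wide because replicate 2 had 2 counts of Oasl2, 5 of Irf7 and 4 of Isg15. The ratio was 6.11 for Usp18 (4.01 to 9.61), 5.37 for Ifit1 (2.16 to 16), 3.8 for Irf9 on 620 and 202 counts, 1.67 for Bst2 (1.54 to 1.81) and 1.47 for Stat2 (1.35 to 1.61). For Ifit3, at 3 and 5 counts, it was 0.744 (0.115 to 3.82). The mean log2 CPM of the 7 genes was 2.89 in female +/+ replicate 1, followed by 1.87 in male +/+ replicate 1 (litter 4) and 1.67 in male E147A/+ replicate 3 (litter 3). The remaining 7 libraries, of all 4 groups, lay between 0.46 and 1.15, and female +/+ replicate 2, the littermate of the highest library, was among the lowest of these.

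In depth, in neural stem cell markers and in scarce microglial markers female +/+ replicate 1 lay within the range of the other libraries, but markers of other cell types differed between the littermates. Its total was 31555904 counts, its neural stem cell markers summed to 6670 CPM, and the 9 scarce microglial markers to 0.0955 CPM (0.128 in replicate 2). Of the other microglial markers, P2ry12 was at 0.987 CPM in replicate 1 and 0.437 in replicate 2, on 31 and 17 counts, and all 11 summed to 25.9 and 25.2 CPM. Its Y-linked counts were above those of the other females, and their part in these levels was not tested. Of the 28 markers of other cell types tested, 12 were more than 2-fold lower than in replicate 2 and 3 more than 2-fold higher. In replicate 1, 4 of the 28 had their lowest level of the 10 libraries and 1, Tek, its highest. Among the lower ones, replicate 1 and replicate 2 were at 1.46 and 18.3 CPM for Dcx and 5.57 and 20.5 for Tubb3, both of young neurons, at 3.82 and 26 for Sox10 and 14.0 and 66.7 for Pdgfra, both of the oligodendrocyte lineage, and at 0.0318 and 1.23 for the pericyte gene Rgs5. Summed over each list the levels were 623 and 789 CPM for neurons, 783 and 847 for the oligodendrocyte lineage, 77.8 and 40.2 for astrocytes, 6.62 and 9.68 for fibroblasts and pericytes, and 3.98 and 3.85 for endothelial cells. The part of these cell types in the interferon genes was not tested.

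Among males, where both genotypes occurred within a litter, E147A/+ minus +/+ could be read inside litters 1 and 3 (2 against 1 library and 1 against 1), where they are given as values. With litter as a covariate in the fit of all libraries, 0 of 7 genes passed in males (lowest adjusted p 0.703 in edgeR, all genes 0.0117%). On the log2 scale the differences in litter 1 and litter 3 were 1.70 and 2.44 for Isg15, 0.35 and 1.68 for Bst2, 0.76 and 1.92 for Irf7, and 0.94 and 0.94 for Usp18. They had opposite signs for Oasl2 (-0.88 and 0.92), Irf9 (0.24 and -0.08) and Stat2 (0.21 and -0.09). For Isg15 both +/+ libraries involved had 0 counts, so that its differences depend on the added prior count of 2. The third male +/+ library, of litter 4, was left out of these differences by construction. Female genotype differences cannot be read within a litter.

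Litter 3 against litter 1 was fitted with group means and litter together, an estimate that rests on the males. In edgeR 0 of 7 genes passed (all genes 0.111%, all 19 lower in litter 3), and 0 of 7 had an unadjusted p under 0.05, where 17.0% of all genes did. The 19 calls over all genes fell to 0 without male E147A/+ replicate 2 or 3 or male +/+ replicate 2 or 3, to 3 without male E147A/+ replicate 1, and to 5 and 6 without female +/+ replicates 1 and 2. The values were 1.84 for Irf7 (SE 1.18), 1.64 for Oasl2 (SE 1.4), 0.92 for Isg15, 0.56 for Bst2 and 0.19 for Usp18, and were negative for Irf9 (-0.41) and Stat2 (-0.35). The median was 0.56, and -0.09 without male E147A/+ replicate 3. Female against male +/+ gave 7 positive values with a median of 0.89. Of these 0 of 7 passed in edgeR (all genes 0.0292%), 1 had an unadjusted p under 0.05 (Bst2, 0.0438, where 1.65% of all genes did), and the median was -0.93 without female +/+ replicate 1.

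Variation between cultures of the same group was thus large for the inducible genes. The pooled within-group SD of log2 CPM was 1.68 for Irf7, 1.48 for Isg15, and 1.43 for both Usp18 and Oasl2, against a median of 0.37 over all genes kept. These 4 genes lay at the 98.7th, 97.5th, 97.2nd and 97.2nd percentile of all genes. Genes of low level spread more on this scale, and the 3405 genes with a mean under 0 log2 CPM, as Isg15, Oasl2, Irf7 and Usp18 had, had a median SD of 0.83. Irf9 (0.60), Bst2 (0.49) and Stat2 (0.28) lay at the 71.2nd, 62.7th and 34.1st percentile.

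**Figure D3:**
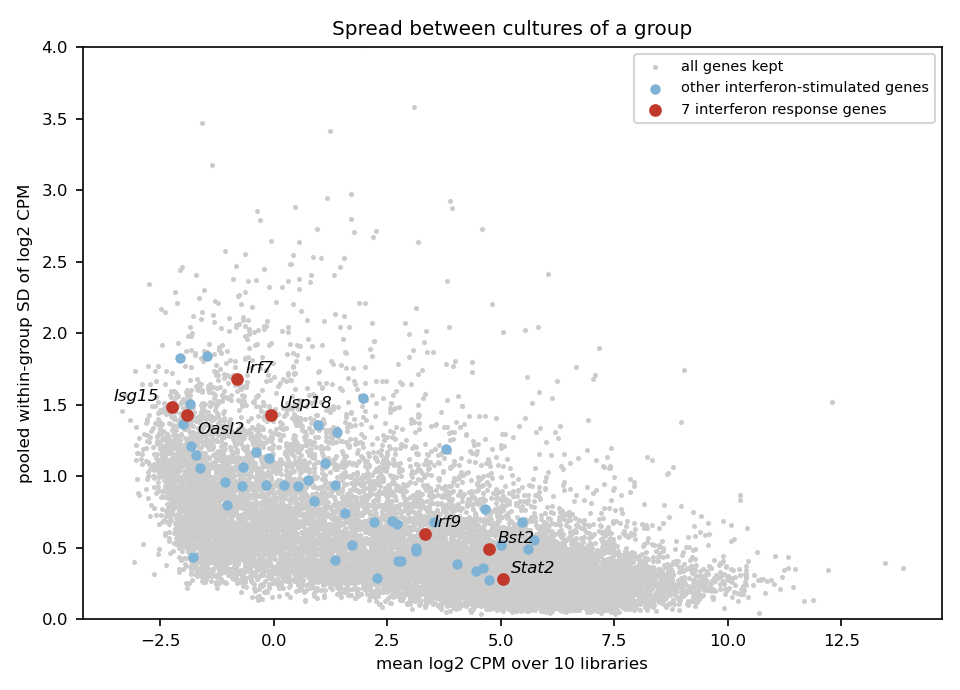
Pooled within-group SD of log2 CPM (vertical axis) against mean log2 CPM over 10 libraries (horizontal axis) for all 17110 genes kept in grey, 46 other interferon-stimulated genes in blue and the 7 interferon response genes tested in red. Irf7, Isg15, Usp18 and Oasl2 lie between 1.43 and 1.68, and Stat2 at 0.28.

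The same genes tended to deviate together. After group means were removed, the 21 pairs among the 7 genes had a median Pearson r of 0.58 over 10 libraries, with 17 pairs positive, against 0.0 over all pairs of genes kept. Without female +/+ replicate 1 the median was 0.22, with 13 pairs positive. These r values describe the same 10 libraries, share their depth and composition, and carry no test. Outside every gene list used here, the 5 genes most alike to the mean log2 CPM of the 7 genes over 10 libraries, by Pearson r, were Syne1 (0.94), Cyp26b1 (0.94), Lamc1 (0.93), Acbd4 (0.91) and Plin2 (0.91), and without female +/+ replicate 1 their r was 0.83 to 0.96. Syne1, which encodes a nuclear envelope protein, was at 35.6 CPM in female +/+ replicate 1 and 7.28 to 20.2 CPM in the other libraries.

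A wider list of 66 other interferon-stimulated genes was examined. Of these, 46 passed the filter, and 0 of 46 were called in any genotype comparison (all genes 0.0818% over both sexes, 0.0117% in females and 0.0234% in males). Before adjustment 3 of 46 had p under 0.05 over both sexes (all genes 5.90%), 6 in females (all genes 4.36%) and 2 in males (all genes 3.44%). Over both sexes 34 of 46 values were negative with a median of -0.35, and without female +/+ replicate 1 the split was 21 negative to 25 positive with a median of 0.04. By the size of the change, the named genes were Mx1 (2.40, SE 1.24), Ifi44 (-2.23, SE 0.909), Gbp3 (-1.99, SE 0.825) and Lgals9 (-1.96, SE 0.941), with adjusted p of 0.814 to 0.821. Ifi44 had 169 counts in female +/+ replicate 1 and 2 to 10 in each other library. Lgals9, which encodes a galectin, had 87 counts there and 1 to 16 elsewhere.

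Mx1, which encodes a GTPase, was the positive value among these 4. Its counts were 46 and 1 in female E147A/+, 9 and 25 in female +/+, 51, 0 and 20 in E147A/+ males, and 2, 0 and 0 in +/+ males. E147A/+ cultures of 1 sex thus ranged from 1 to 46 and from 0 to 51 counts. In males its paralog Mx2 was at 8.22, 0.971 and 10.2 CPM in E147A/+ and 1.86, 1.6 and 0.607 in +/+, and was fitted at 2.25 there (SE 0.839, adjusted p = 1). In females Mx2 was at 4.8 and 1.09 CPM in E147A/+ and 3.57 and 4.29 in +/+, with the lower mean in E147A/+. Mx2 was chosen after its values were seen. Genotypes overlapped in males for both Mx genes.

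The highest of the 10 libraries was female +/+ replicate 1 for 22 of the 46 genes (47.8%), against 11.5% of all genes kept, and for 4 of the 7 tested above. Male +/+ replicate 1 was highest for 10 of the 46 (21.7%, all genes 14.9%) and male E147A/+ replicate 3 for 4 (8.70%, all genes 15.4%). The 22 genes included Ifi44, Rtp4, Xaf1, Cxcl10, Eif2ak2 (the kinase PKR), Parp9, Parp12, Parp14 and the GTPases Gbp2, Gbp3 and Gbp7. Not all interferon targets took part. Ifit2 was highest in female +/+ replicate 2 (15.2 CPM, against 7.55 in replicate 1), Samd9l in female E147A/+ replicate 1, and Mx1 in male E147A/+ replicate 1. These library counts came from genes chosen by name and carry no test.

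**Figure D4:**
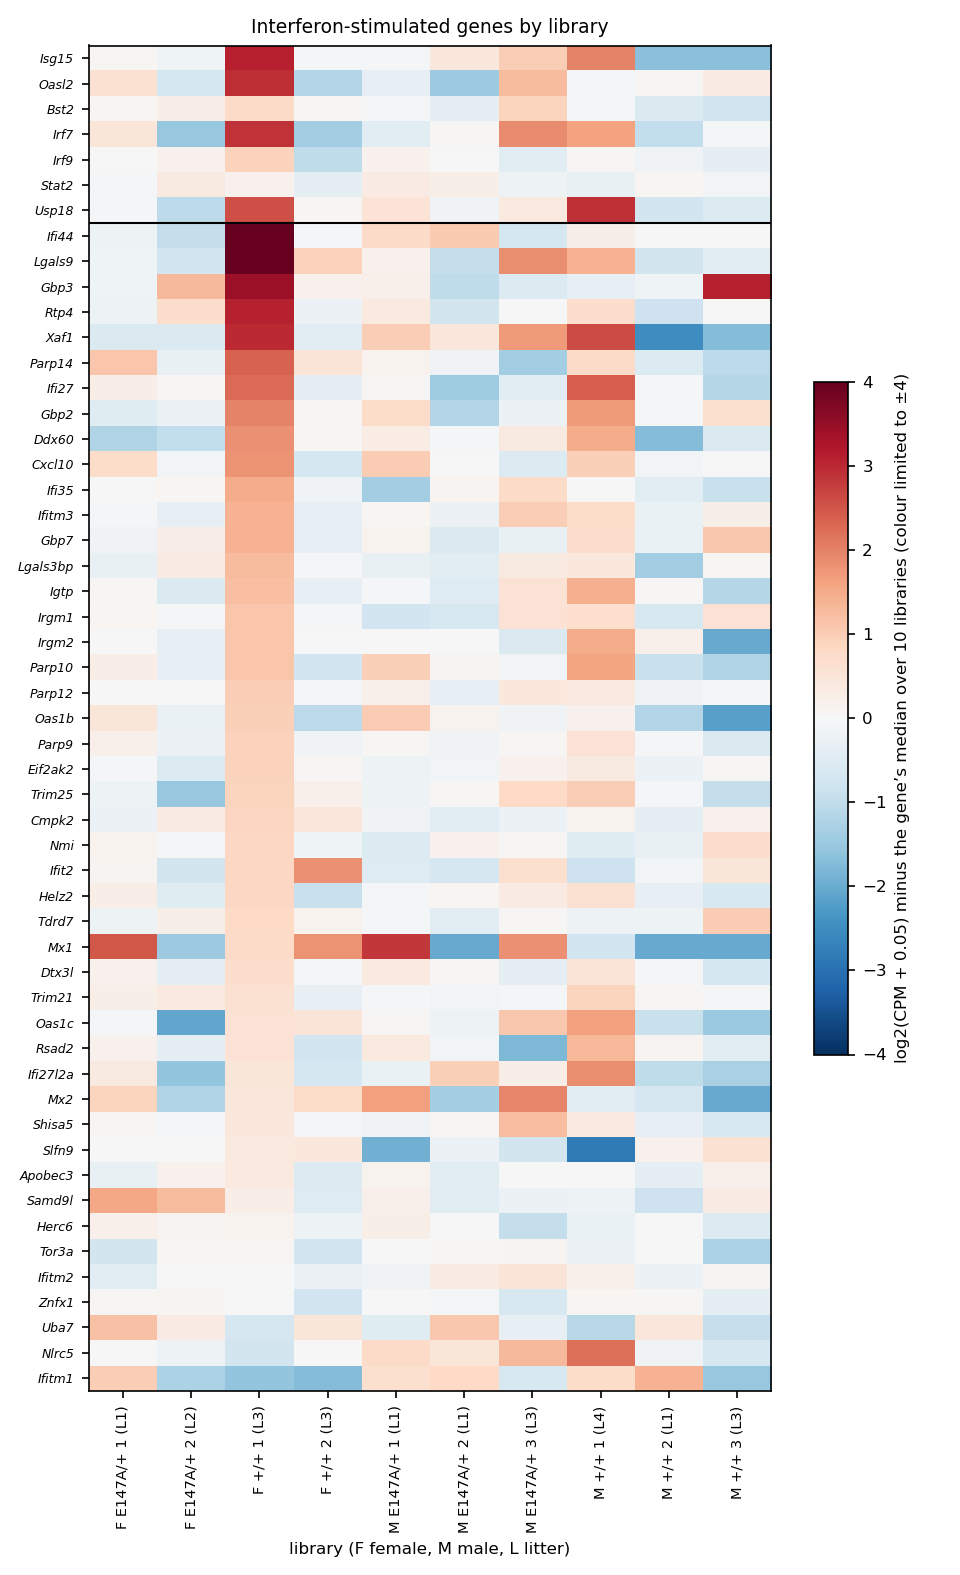
Level of the 7 genes tested (above the line) and 46 other interferon-stimulated genes (below, ordered by their level in female +/+ replicate 1) in each library, as log2(CPM + 0.05) minus the median of that gene over the 10 libraries, with colours limited to ±4. The column of female +/+ replicate 1 is red for most genes, and that of its littermate, female +/+ replicate 2, is not.

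**Figure D5:**
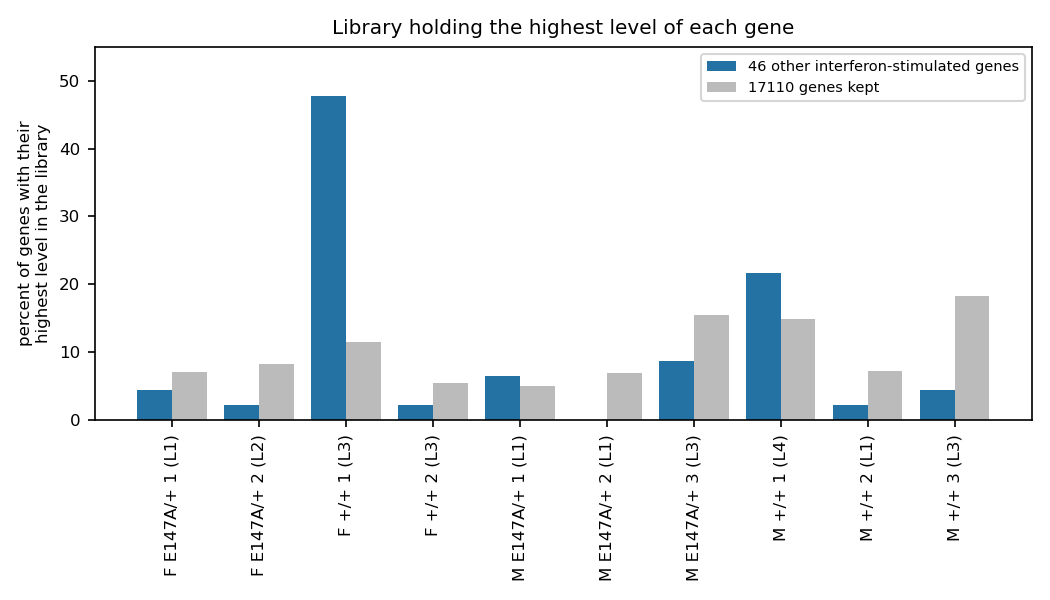
Percent of genes whose highest level fell in each library (vertical axis from 0), for the 46 other interferon-stimulated genes in blue and all 17110 genes kept in grey. Female +/+ replicate 1 holds 47.8% of the former and 11.5% of the latter.

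Upstream of these targets no gene tested was called between genotypes over both sexes. Of 20 interferon genes in the table (the Ifna family, Ifnb1, the lambda interferons and Ifng among them), 19 had 0 counts in every library and the other had 1 count in all, in female E147A/+ replicate 1. Of 16 sensors and adaptors 12 were tested and 0 passed (all genes 0.0818%), with 6 values positive and 6 negative. The largest of them were Ikbke, a kinase that activates IRF3 and IRF7 (-0.78, SE 0.632), the RNA sensor Ifih1 (-0.66, SE 0.565), Sting1, the adaptor of cGAS (-0.54, SE 0.426), and the TLR3 adaptor Ticam1 (0.46, SE 0.254). Enzymes that keep self nucleic acid from being sensed, such as Adar and the RNase H2 subunits, gave 0 of 6 tested (all genes 0.0818%), with Rnaseh2c at -0.28 (SE 0.148), Rnaseh2b at -0.15 (SE 0.193), Rnaseh2a at -0.13 (SE 0.136) and Samhd1, a nucleotide hydrolase, at 0.089 (SE 0.205).

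Receptor chains and kinases gave 0 of 8 tested (all genes 0.0818%, here and for the next 2 lists), and Ifnar1, Ifnar2, Jak1 and Tyk2 were expressed in every library, the first of them at 98.5 to 136 CPM. Il10rb was at -0.48 (SE 0.34), Jak2 at -0.27 (SE 0.121), Tyk2 at 0.17 (SE 0.182) and Ifngr2 at -0.17 (SE 0.26). Feedback inhibitors gave 0 of 6, with Socs3 at -0.72 (SE 0.366), Ptpn6 at 0.44 (SE 0.418), Irf2bp2 at 0.23 (SE 0.15) and Socs1 at 0.17 (SE 0.548). Inflammatory targets of NF-kB gave 0 of 10, with Tnfaip3, the ubiquitin-editing inhibitor A20, at 1.24 (SE 0.39, adjusted p = 0.705 in edgeR), the chemokines Ccl2 and Cxcl1 at -0.97 (SE 1.08) and 0.93 (SE 0.569), and Birc3 at 0.77 (SE 0.456). Tnfaip3 was at 10.3, 8, 12.3, 11.8 and 4.72 CPM in the E147A/+ libraries and at 1.69, 2.59, 7.48, 11.2 and 3.34 in the +/+ libraries, with the 4 lowest values all in litter 3. Before adjustment, p was under 0.05 over both sexes for 0 of 12 sensors, 0 of 6 restraining enzymes, 1 of 8 receptors and kinases (Jak2), 0 of 6 feedback inhibitors and 1 of 10 inflammatory targets (Tnfaip3), where 5.90% of all genes had such a p.

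Counts assigned to the 129 or the Castaneus (Cast) allele were deposited for the 4 female libraries, and the share from Cast differed between loci. For Stat2 the Cast share was 43.8% and 40.4% in E147A/+ and 38.4% and 35.2% in +/+, on 548 to 966 allelic counts. Neighbouring genes within 5 Mb had median shares of 46.5% to 49.3%, above the 95% Wilson interval of Stat2 in each library. The Bst2 share was 22.3% and 25.8% in E147A/+ and 19.1% and 15.2% in +/+, where neighbours had medians of 21.1% to 23.5%. Its interval lay below the neighbours' median in both +/+ libraries (16.6 to 21.8 against 23.5%, and 12.5 to 18.2 against 23.0%), above it in E147A/+ replicate 2 (22.9 to 29.1 against 21.1%) and around it in replicate 1. Intervals cover counting error only, and the part played by mapping to either genome was not tested.

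Neighbours around several of the genes had median Cast shares far below those around Stat2, which goes against the labels' description of a Castaneus father for the whole genome. A low share at such a locus is therefore not read as allelic imbalance, and its reason was not tested. Around Irf9, Cast counts were nearly absent in 3 of the 4 libraries. The Cast share of Irf9 was 52.0% in female E147A/+ replicate 2 (neighbours 49.5%), but 0.463% in replicate 1 and 0 of 320 and 0 of 99 counts in female +/+ (neighbours 0.737% to 3.56%), which allows shares of up to 0.938% and 3.03% at 3 counts, with Wilson upper limits of 1.19% and 3.74%. In the same manner Isg15 in female +/+ replicate 1 had 29 counts from 129 and 0 from Cast, where neighbours had a median of 5.96%. Counts of the other effectors were few. In female +/+ replicate 1, where they were the highest of the 4 females, the Cast share was 24.1% for Irf7 (interval 14.6 to 36.9, neighbours 50.4%) and 25.7% for Usp18 (14.2 to 42.1, neighbours 0.584%). Ifit1 had 0 Cast counts of 19 there (neighbours 0%), which allows a share of up to 15.8% at 3 counts (Wilson upper limit 16.8%), but 9 of 10 in female E147A/+ replicate 2 (neighbours 48.3%). Oasl2 had 1 of 38 in female +/+ replicate 1 (neighbours 1.8%).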

How the data were processed

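Stranded poly(A) libraries were sequenced as 80-base paired reads, per the labels' protocols. The submitters' processing notes name Trim Galore 0.4.4, HISAT2 2.0.5, featureCounts, R 3.5.1, edgeR 3.24.0 and GRCm38 (mm10), with no roles given. The deposited table holds unnormalised gene counts of 10 libraries, with allele-assigned counts added by the authors for females. How strand was used in counting is not given in the sources used here.

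Counts were filtered with filterByExpr (17110 of 52632 genes kept), TMM-scaled and fitted in edgeR 4.0.16 under R 4.3.3. The quasi-likelihood F test used sex and genotype group means over 10 libraries (6 residual degrees of freedom, 3 with litter). p-values were adjusted by Benjamini-Hochberg over all genes kept, with a threshold of 0.05. SEs are the absolute log2 fold change over the square root of F, and intervals are approximate. log2 CPM values have a prior count of 2. Exon lengths came from GENCODE M21 and promoters from RefSeq. Allelic shares have 95% Wilson intervals, and 3 counts are the floor.

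The genes, lists and tests were chosen with earlier results of these data known. Named genes are all 9, in each other pathway list those past the threshold or otherwise up to 4 of the largest changes over both sexes, and the 5 genes most alike. Other interferon genes given by library, Adar, Ifnar1, Ifnar2, Jak1 and the cell type markers given with values were named after values were seen. A list of other transcription factors is not reported here. DESeq2 1.42.0, limma-voom 3.58.1, RLE scaling, other filters, fits to the compared groups, litter terms, replicate blocks and leaving out each library were tried as alternatives. Counts were also simulated with known changes. Over both sexes (16760 genes), the fit called 28.3% of 99 genes changed by 1 on the log2 scale. It called 92.9% of 99 changed by 3, with 7 false calls. In females (16753 genes) these rates were 3.06% of 98 and 71% of 100. For litter 3 against litter 1 (16798 genes) they were 1% of 100 and 74.7% of 99. These rates pool all changed genes tested and were not obtained for the interferon response genes. Isg15, Oasl2, Irf7 and Usp18 lay at the 97.2nd to 98.7th percentile of within-group SD. Their SEs over both sexes were 0.821 to 1.06. The rates therefore cannot say how often such changes would be found in these genes.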

Additional observations from a re-analysis of the deposited data

Results flagged for a closer look

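Among 40 gene and group combinations of 4 to 10 libraries, 4 had a library set apart by Dixon's criterion. Its gap to its nearest neighbour was then too large a part of the whole range. For independent normal values chance gives about 1 in 20 such groups. That rate was not checked for CPM of genes with few counts, so the 4 of 40 cannot be judged by it. In all 4 combinations the library set apart was female +/+ replicate 1. Its Ifit1 level was 0.828 CPM, against 0.169 or less in the other +/+ libraries and likewise in the other libraries of litter 3, which accounts for 2 of the 4. Its Oasl2 level was 1.72 CPM, against 0.236 or less in the other +/+ libraries. Its Usp18 level was 4.24 CPM, against 0.898 or less in the other libraries of litter 3. The 4 combinations share this library and are not independent.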

How the results depend on the processing

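Among those of the 9 genes that each setting kept, 0 passed the threshold in each of 112 combinations of comparison and setting. The number kept was 7 in the main fit and 6 without male +/+ replicate 1, and it differed with the filter. Of 471 single-gene values under alternatives, 428 kept their direction, 43 changed sign and 0 passed, with a lowest adjusted p of 0.111. With litter as a covariate, Isg15, Oasl2, Irf7 and Stat2 over both sexes were at 2.09, 0.069, 0.91 and -0.13. In females Oasl2, Irf7, Stat2 and Bst2 were at 0.11, 0.30, -0.35 and 0.19, and in males Isg15 and Usp18 at 5.83 and 1.06. The limits stated above for Isg15 and for the female values of that fit hold here too. With limma-voom, Irf9 was at 0.19 over both sexes and 0.19 in females, and Isg15, Oasl2 and Usp18 in males at 1.65, -1.07 and 0.067. With a replicate block, Irf9 was at 0.089 over both sexes and 0.11 in females, and Isg15 and Oasl2 in males at 1.01 and -0.24. With the female pairing crossed, a choice made after seeing the data, these were 0.089, 0.11, 0.90 and -0.22. Between libraries of equal replicate number the correlation of deviations was -0.304 in females, and -0.238, 0.416 and 0.0341 in males. With 2 libraries per group the female value only turns sign when crossed, so it cannot show a pairing or its absence. Male replicates 2 of both genotypes were from litter 1 and male replicates 3 from litter 3.

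With each library left out in turn, values over both sexes ranged from -1.50 to 1.01 for Oasl2, -1.78 to 0.87 for Irf7, -0.024 to 0.42 for Bst2 and -0.38 to 0.59 for Irf9. In females the ranges were -3.64 to 0.012 for Isg15, -3.18 to 1.86 for Oasl2, -3.86 to 1.45 for Irf7, -0.018 to 0.54 for Stat2, -0.60 to 0.13 for Bst2 and -0.85 to 1.07 for Irf9. In males they were -0.77 to 0.10 for Isg15, -1.80 to 1.02 for Usp18, -0.87 to 1.41 for Irf7 and -0.049 to 0.25 for Irf9. Litter 3 against litter 1 gave -0.23 to 1.09 for Bst2, and for Isg15 no value without male E147A/+ replicate 3. Other single-gene ranges in these 4 comparisons kept their sign, and single genes were not followed in this way for sex and the interaction, whose medians ranged from -0.93 to 1.78 and from -2.31 to 0.75.

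Over all genes the calls were 14, 2, 4, 0, 5 and 19 (both sexes, females, males, interaction, sex, litter), and 113, 46, 48, 2, 5 and 1187 with DESeq2. They were 29, 2, 9, 0 and 5 with limma-voom, 33, 8, 14, 0, 5 and 1407 without a filter, and 9, 2, 3, 0 and 0 with 10 counts in every library. Litter as a covariate gave 3, 0, 2, 1 and 5, and the block 5, 0, 2 and 0. For litter 3 against litter 1, sex and genotype with litter gave 541 and males alone 0. The cause of these differences was not tested. With prior count 0.5 the SD percentiles of Irf7, Isg15, Usp18 and Oasl2 were 97.1, 98.4, 94.2 and 96.4. Depth limits Ifit1, Ifit3, Isg15 and Oasl2, which had 21 to 110 counts in all 10 libraries.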
